A study of Mus musculus with 6 samples.

Results

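Long noncoding RNAs that lie antisense to protein-coding genes, or start beside them and run the other way, were examined in hypertrophic mouse hearts. The set held 103 of the 2991 genes that the deposited table annotates as antisense or bidirectional-promoter RNA (83 of 2826 antisense and 20 of 165 bidirectional). These 103 members were chosen by their deposited expression values, an FPKM (fragments scaled for gene length and library size) of 1 or more in 3 or more samples of 6. The choice left out Gas5 and the small nucleolar RNA host genes named Snhg, none of which would have passed. RNA came from frozen myocardium of wild-type C57BL/6 mice of 18 weeks. Both groups had received an adeno-associated virus of serotype AAV9: the 3 controls were labelled AAV9-EGFP, which carries a green fluorescent protein, and the other 3 AAV9-anti-miR-199a-TuDs. Tough decoys (TuDs) are stable hairpins with binding sites for 1 microRNA, which they sequester. The labels do not say how hypertrophy was brought about, which promoter drove the decoys, the sex of the animals, or whether each sample was a separate animal, so p-values measure the spread between samples, which may be technical.

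An antisense RNA is transcribed from the strand opposite a coding gene and overlaps it, while a bidirectional-promoter RNA starts close to a coding gene's start and runs away from it. Some RNAs of both kinds regulate the neighbouring gene in cis, through chromatin, promoter competition or pairing with the sense transcript, and others have no known function. In the heart, Mhrt, an RNA antisense to the beta-myosin heavy chain gene Myh7, is the best-studied case. Below, the partner of a member is the protein-coding gene that overlaps it on the opposite strand over most bases, or otherwise the nearest one.

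The members fell into 3 arrangements. In 38, the member and its partner lay on opposite strands with starts no more than 1000 bases apart (head to head, median distance 237 bases), in 62 the member lay within or across the partner's body, and in 3 the starts were farther apart. Of the 103 members, 56 had some exonic bases within protein-coding exons and 47 had none. The libraries came from a kit that does not by itself mark the strand, and the strand setting of the counting is not given in the sources used here, so where exons overlap, reads of a member and of its partner cannot be told apart. The share was 50% or more of exonic bases in 3 members, with 59.5% in Gm17201. Of the 103 members, 80 overlap the partner on the opposite strand. Member exons within a partner's intron may also hold reads of its unspliced RNA, which was not examined.

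The promoter stretches below are shown because they carry the start of 4 head-to-head members that the paired comparison turns on, of 0610009L18Rik as a head-to-head member with no call, and of the most abundant member. Each runs 5′ to 3′ on the member's strand, from RefSeq (GRCm38.p6), within 250 bases before to 50 bases after the start, trimmed to bases outside protein-coding exons. Capitals mark matches on either strand to the TATA box (TATAAA), the CCAAT box, the GC box (GGGCGG), an ETS core (CCGGAAG), an NRF1 core (GCATGCG) or a YY1 core (AAGATGG).
2810001G20Rik/Cox10, chr11:64079469-64079533, strand plus: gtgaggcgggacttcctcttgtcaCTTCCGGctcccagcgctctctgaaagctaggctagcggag
Gm4285/Tpt1, chr14:75844915-75845092, strand minus: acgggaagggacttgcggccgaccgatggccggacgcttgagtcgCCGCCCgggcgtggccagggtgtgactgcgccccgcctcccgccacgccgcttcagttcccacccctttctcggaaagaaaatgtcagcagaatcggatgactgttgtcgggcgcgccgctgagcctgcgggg
4732491K20Rik/Map3k4, chr17:12318797-12318902, strand plus: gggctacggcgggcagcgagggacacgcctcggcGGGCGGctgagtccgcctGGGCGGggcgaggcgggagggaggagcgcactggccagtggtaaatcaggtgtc
0610009L18Rik/Actg1, chr11:120348543-120348727, strand plus: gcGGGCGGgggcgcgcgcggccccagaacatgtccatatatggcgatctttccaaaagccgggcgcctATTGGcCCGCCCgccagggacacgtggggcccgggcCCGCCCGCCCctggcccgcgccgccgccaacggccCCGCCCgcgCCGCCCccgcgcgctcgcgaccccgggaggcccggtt
E230013L22Rik/Rab20, chr8:11477679-11477978, strand plus: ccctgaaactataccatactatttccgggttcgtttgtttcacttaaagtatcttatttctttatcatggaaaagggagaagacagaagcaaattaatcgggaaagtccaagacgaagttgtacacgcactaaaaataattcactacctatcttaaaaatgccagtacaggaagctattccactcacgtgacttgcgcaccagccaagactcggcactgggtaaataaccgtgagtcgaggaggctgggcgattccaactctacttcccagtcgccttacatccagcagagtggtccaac
Gm15543/Casc1, chr6:145182025-145182324, strand plus: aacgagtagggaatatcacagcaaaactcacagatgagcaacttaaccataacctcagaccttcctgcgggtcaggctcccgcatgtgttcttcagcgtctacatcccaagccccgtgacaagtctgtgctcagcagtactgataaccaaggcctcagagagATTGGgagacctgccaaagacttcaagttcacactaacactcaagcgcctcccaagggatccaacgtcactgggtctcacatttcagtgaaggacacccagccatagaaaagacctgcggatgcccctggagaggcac
The stretch of 2810001G20Rik holds 1 ETS core and begins only 15 bases before the member's start, since the start of Cox10 lies 16 bases away. That of 0610009L18Rik, beside the cytoplasmic actin gene Actg1, holds 6 GC boxes, overlapping matches included, and 31 CpG dinucleotides in 185 bases. The stretch of E230013L22Rik holds none of these letter strings.

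RefSeq entries matched 53 of the 103 members. In some, the RefSeq start lay far from the deposited start, by 12675 bases in D530033B14Rik and by 5110 in Gm13594, a head-to-head member. Those windows are counted below, although they may not be the promoter of the deposited gene. Over whole windows of 300 bases, the 22 head-to-head members had a median of 31 CpG, the 29 gene-body members 7 and all 32851 promoters of the RefSeq set also 7. A GC box was found in 63.6% of head-to-head windows, 34.5% of gene-body windows and 35.7% of all windows. For the ETS core the shares were 22.7%, 17.2% and 8.86%, and for TATAAA 4.55%, 6.90% and 13.6%. CCAAT was found in 27.3%, 37.9% and 37.4%, AAGATGG (the YY1 core) in 18.2%, 3.45% and 6.34%, and GCATGCG in 0%, 0% and 3.58%. Where the starts lie close together, a head-to-head window also covers part of the partner's promoter.

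The libraries held 15.2 to 18.2 M reads (M, megareads) in genes. Members took 0.0736% to 0.0769% of reads in the controls and 0.0853% to 0.0917% in the TuD samples, and their FPKM, divided by size factors here and below (normalised FPKM), summed to 626 to 672 against 866 to 954. The groups did not overlap in either measure. Reads were concentrated too: 1 member held 17589 over the 6 samples, where all members together held 13408 to 15263 in each sample. The shares without that member were not examined. Summed FPKM was concentrated in few genes: the 2 most abundant members held 41.9% and the 5 most abundant 56.0%. Mean levels ran from 0.756 to 172 with a median of 2.65, 10 members reached 10 and 41 stayed under 2. A typical member rested on few reads, a median of 330 over all 6 samples (51 to 17589), and its SD was 21.4% of the mean in controls and 26.9% in TuD samples, against 9.94% and 13.5% over all tested genes. Y-linked transcripts were present in the 3 controls and TuD replicate 3 (summed FPKM 8.32 to 12.5) and nearly absent in TuD replicates 1 and 2 (0.0254 and 0.00711). Mitochondrial transcripts took 5.31% to 12% of reads in controls and 11.1% to 17.5% in TuD samples. The labelled tissue was checked with cardiomyocyte markers, which were high throughout (8 of 8 found, summed FPKM 23875 to 24894 in controls and 25241 to 31606 in TuD samples, 4 called higher). Marker sums did not overlap between groups for adipocytes (0.0684 to 0.814 against 3.60 to 10.6) or for atrial cells (0.608 to 0.717 against 2.13 to 114). Those of neutrophils overlapped (0.807 to 4.97 against 3.65 to 148). The values of 114 and 148 came from TuD replicate 3. The 1 adipocyte marker tested was called higher, and no atrial or neutrophil marker was called. Erythroid markers summed to 1020 to 1412 and 1240 to 2984, with 2 of 3 called higher. The part of these differences in the members' results was not tested. In bulk tissue, fewer cells of a type and less RNA per cell cannot be told apart.

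Of the 103 members, 17 were called higher and 17 lower in the TuD group (limma, Benjamini-Hochberg adjusted p under 0.05 over the 10460 genes tested), and 69 passed neither way. That is 33.0% of members against 29.1% of all tested genes, where 14.8% were called higher and 14.2% lower, so the members' share lies near the background. The groups did not overlap in 40 members and in 5008 of the 10460 genes. The median log2 fold change, TuD minus control, was +0.16 over the members and +0.01 over all tested genes. Members spread from -2.30 to +1.52. A change of 2-fold or more was reached upward by 4 and downward by 8. Because the choice required FPKM of 1 in 3 samples, 5 members entered through the controls alone and 5 through the TuD samples alone. Of these, 5 and 4 were among the calls, which their choice favours. Antisense members gave 15 higher and 14 lower of 83, bidirectional members 2 and 3 of 20. Head-to-head members gave 4 and 6 of 38, gene-body members 13 and 10 of 62. Among members with no exonic base in coding exons, 5 rose and 6 fell of 47, and among the others 12 and 11 of 56.

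**Figure D1:**
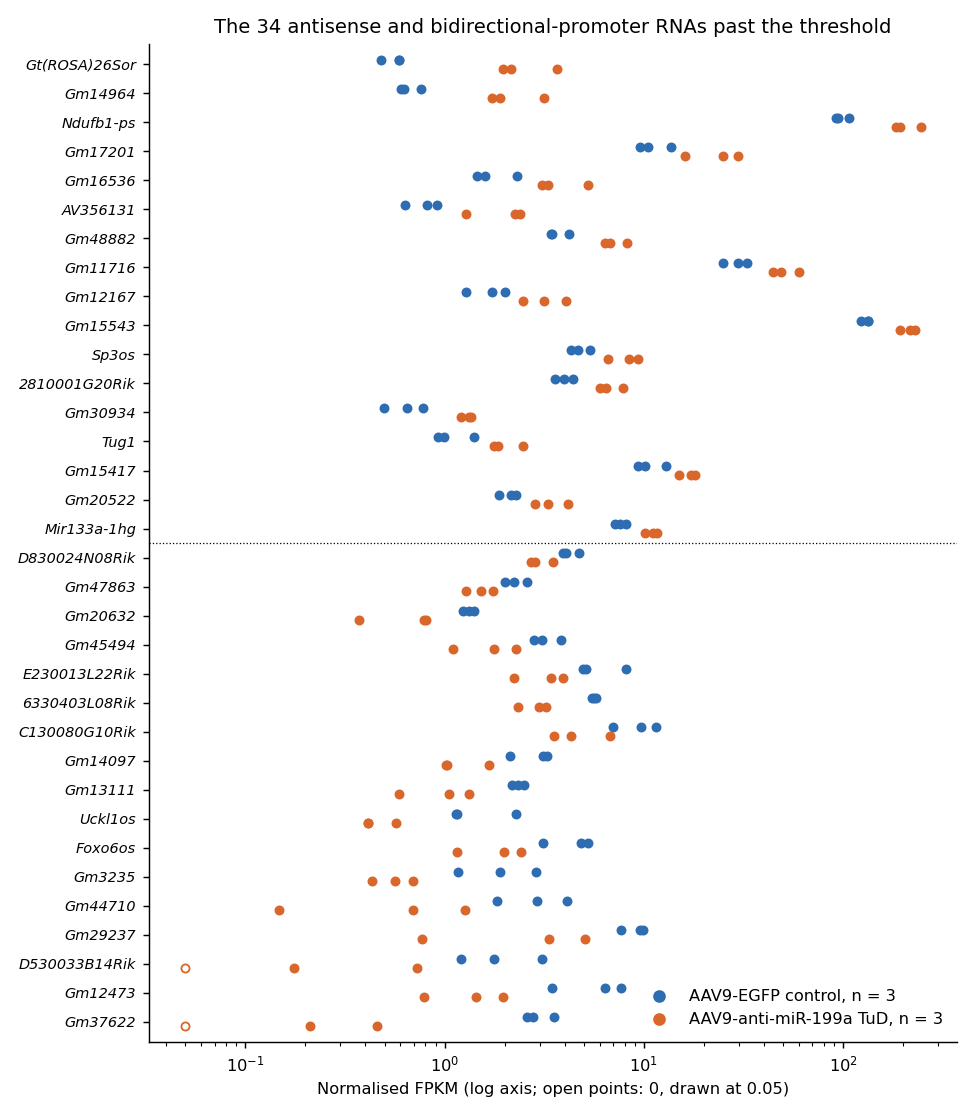
Normalised FPKM in each of the 6 samples (log axis) for the 34 members past the threshold, ordered by log2 fold change, with the 17 that rose above the dotted line and the 17 that fell below it. Blue points are controls and orange points TuD samples (n = 3 each). The groups do not overlap in any of the 34, which the choice fixed for those chosen through a single group alone, and levels run from 0 to 245.

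Fold change moved with gene length over all tested genes, and less so over the members as a set. Over all tested genes, short genes were higher in the TuD group and long genes lower. There r was -0.39 between log2 fold change and log10 length across 10460 genes, which are not independent replicates. Over the 103 members r was -0.02 and Spearman's rank correlation -0.12. Members are short, with a median of 892 bases against 3852.5. Under 500 bases, 4 of 15 members rose and 4 fell with a median of -0.02, where all genes of that length had 38.6% higher, 4.83% lower and a median of +0.60. From 500 to 1000 bases the members gave 6 higher and 4 lower of 40 (median +0.29) and all genes 40.4% and 3.89% (median +0.48). From 1000 to 2000 bases it was 6 and 1 of 23 (median +0.21) against 29.8% and 5.11% (median +0.28), and from 2000 bases 1 and 8 of 25 (median -0.09) against 9.78% and 16.8% (median -0.06). With each sample's trend on length over all tested genes removed, 3 members were called higher and 22 lower, against 11.4% and 12.7% of all genes. Since the members followed that trend little, a call lost here need not reflect length, which was not tested. All 17 lower members kept that call, and of the 17 higher ones only Gt(ROSA)26Sor, Ndufb1-ps and Tug1 did. The estimate of 1 of the 17, Mir133a-1hg, changed sign under the correction, from +0.49 to -0.10. In TPM, which gives every library the same total, the members split into 7 higher and 29 lower, with the median of all genes at -0.33. In that setting 4656 of the 10460 tested genes were called. The call of the other 14 higher members ended under the length correction.

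**Figure D2:**
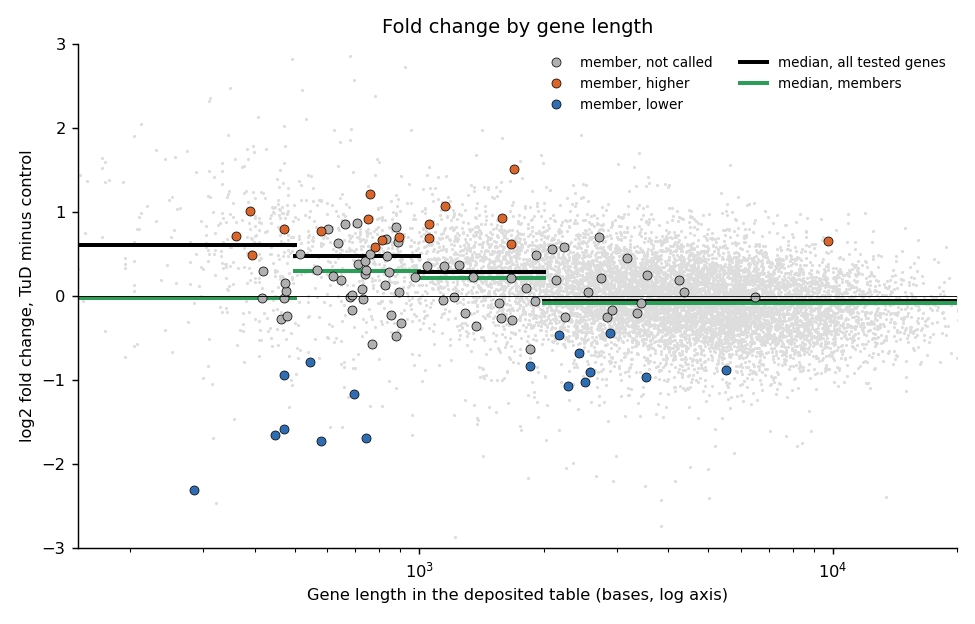
Log2 fold change (TuD minus control) against gene length in bases on a log axis, with all tested genes as small grey dots (a few lie outside the axes) and the 103 members as large points coloured by call. Black and green lines are medians of all genes and of members within length classes: under 500 bases all genes sit at +0.60 and members at -0.02.

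The 2 most abundant members were also called higher. Gm15543 (ENSMUSG00000086863, chr6:145182275-145187630, plus strand, 361 bases) lies within Casc1. It measured 123, 134 and 133 normalised FPKM in control replicates 1, 2 and 3 and 218, 230 and 193 in TuD replicates 1, 2 and 3, a log2 fold change of +0.71 ± 0.11 (SE, limma adjusted p = 0.00468). Every TuD sample lay above every control, and none of its exonic bases fell in coding exons. Casc1 itself stayed at 0.482 to 0.598, below the level tested.

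Ndufb1-ps (ENSMUSG00000113902, chr12:101968090-101977068, minus strand, 1153 bases) carries the name of a pseudogene of a complex I subunit of the respiratory chain. Its reads are uncertain where a near-identical copy exists. It counts as a noncoding member by the deposited biotype alone, and whether it encodes that subunit was not examined. Its levels were 92.4, 94.6 and 107 in controls and 194, 245 and 185 in TuD samples (+1.07 ± 0.14, limma adjusted p = 0.00258). The groups were well apart, and the length correction left +0.72 (adjusted p = 0.00452). Gm11716, within the lipid-transfer protein gene Pitpnc1 and 470 bases long, measured 25.0, 32.8 and 29.7 against 48.7, 59.8 and 44.5 (+0.79 ± 0.15, limma adjusted p = 0.00761). The other abundant members did not pass. Gm45670, within the helicase gene Dhx32, measured 25.6, 48.6 and 49.8 against 47.2, 50.5 and 57.7 (+0.38, 95% interval -0.17 to +0.93). Gm13375, head to head with Arhgap21, which encodes a GTPase-activating protein, measured 28.8, 21.1 and 24.9 against 17.8, 19.4 and 27.1 (-0.22, 95% interval -0.63 to +0.18). Both overlapped between the groups.

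The highest fold change among members belonged to Gt(ROSA)26Sor (chr6:113067428-113077333, minus strand), the noncoding transcript of the Rosa26 locus, which is active in most mouse tissues and is widely used for inserting transgenes. It measured 0.590, 0.479 and 0.590 in controls and 3.66, 1.96 and 2.16 in TuD samples (+1.52 ± 0.21, limma adjusted p = 0.0034), from 54 and 204 reads in all. Gt(ROSA)26Sor was chosen through its TuD samples alone, so the choice fixed the separation of its groups. The length correction left +1.28 (limma adjusted p = 0.0087). Gm14964, within the neurexin gene Nrxn2 (760 bases), measured 0.762, 0.601 and 0.623 against 1.89, 1.73 and 3.15 (+1.21 ± 0.20, limma adjusted p = 0.00557). AV356131 starts 126 bases from the lipid kinase gene Pik3c2a and measured 0.632, 0.812 and 0.912 against 2.27, 2.4 and 1.28 (+0.92 ± 0.21, limma adjusted p = 0.0144). Both were also chosen through their TuD samples alone, so the choice fixed the separation, and AV356131 rested on 34 and 68 reads. Gm16536, within the beta-secretase gene Bace1, gave 2.32, 1.6 and 1.46 against 5.27, 3.09 and 3.32 (+0.92 ± 0.21). Gm48882, across the death-domain adaptor gene Cradd, gave 4.19, 3.46 and 3.44 against 6.75, 6.36 and 8.23 (+0.86 ± 0.13). No sample overlapped between the groups in either.

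The remaining higher members rose by less. Tug1 (9734 bases, the longest of them), a conserved nuclear RNA head to head with the chromatin ATPase gene Morc2a, measured 1.41, 0.922 and 0.989 against 2.46, 1.85 and 1.77 (+0.66 ± 0.17, limma adjusted p = 0.0238). It is the only called higher member of 2000 bases or more. Mir133a-1hg, the host transcript of a muscle microRNA, within the ubiquitin ligase gene Mib1, measured 8.13, 7.58 and 7.19 against 11.6, 10.2 and 11.1 (+0.49 ± 0.10, limma adjusted p = 0.0115). Sp3os, 2810001G20Rik, Gm30934, Gm15417 and Gm20522 rose by +0.58 to +0.70.

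The members that fell were longer, with a median of 1856 bases against 815 for those that rose, and the lowest fold changes came from small counts. Gm37622 (chr1:155231304-155233159, plus strand, 285 bases) lies within BC034090 and measured 2.77, 3.56 and 2.58 in controls but 0.459, 0 and 0.210 in TuD samples (-2.30 ± 0.24, limma adjusted p = 0.00191), from 49 and 3 reads. Gm12473, within Npr2, the receptor of C-type natriuretic peptide, measured 7.64, 6.4 and 3.45 against 0.790, 1.43 and 1.97 (-1.72 ± 0.31, limma adjusted p = 0.00681). D530033B14Rik, across 1600014C10Rik, measured 1.21, 3.08 and 1.77 against 0.176, 0 and 0.727 (-1.69 ± 0.37, limma adjusted p = 0.0126). All TuD samples lay below all controls in these 3. For Gm37622 and D530033B14Rik, chosen through their controls alone, the choice fixed this. Fitted folds against levels near 0 depend on the pseudocount of 0.5.

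Gm29237, within the beta-spectrin gene Sptbn1, measured 9.87, 7.70 and 9.51 against 3.36, 0.772 and 5.08 (-1.65 ± 0.46, limma adjusted p = 0.0304). TuD replicate 2 was the low sample here, as it was for Gm44710, across the Mediator subunit gene Med29 (4.13, 1.83 and 2.9 against 0.694, 0.147 and 1.27, -1.58 ± 0.37). Gm3235, within the RNA demethylase gene Fto, measured 1.89, 1.17 and 2.88 against 0.564, 0.697 and 0.431 (-1.17 ± 0.25). Foxo6os, beside the forkhead factor gene Foxo6, measured 5.24, 4.85 and 3.12 against 2, 2.42 and 1.15 (-1.07 ± 0.25). The groups stayed apart in each, which for Gm3235, chosen through its controls alone, was fixed by the choice. Uckl1os, across the uridine kinase gene Uckl1, measured 2.27, 1.15 and 1.15 against 0.415, 0.411 and 0.570 (-1.03 ± 0.22) and was also chosen through its controls alone. Gm13111, head to head with Prdm16, a transcriptional regulator of brown fat and the heart, measured 2.50, 2.33 and 2.18 against 0.591, 1.05 and 1.32 (-0.96 ± 0.19). Gm14097, within Shld1, a gene of the shieldin complex that protects DNA ends, measured 2.13, 3.13 and 3.25 against 1.67, 1.03 and 1.02 (-0.94 ± 0.20). Adjusted p-values of these 7 were 0.00986 to 0.0304 in limma. Of the other 7, 6330403L08Rik beside the growth factor gene Pdgfa had the lowest adjusted p (0.00392), at 5.76, 5.63 and 5.52 against 2.97, 2.33 and 3.23 (-0.88 ± 0.13).

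Leaving out each library in turn kept 17 of the 34 calls in all 6 fits (9 higher, 8 lower), and none changed direction. Without control replicate 2, 13 calls ended (adjusted p 0.052 to 0.0955, limma). Without control replicate 1, 10 ended (0.0518 to 0.124), and without control replicate 3, 9 ended (0.0513 to 0.107). Without TuD replicates 1, 2 and 3, 6, 8 and 2 calls ended (0.0502 to 0.0753, 0.0537 to 0.111 and 0.0626 to 0.0743). Among those named above, Gm17201 lost its call without control replicate 2 (0.0521), Gm16536 without control replicates 2 and 3 (0.0575 and 0.0543), and Tug1 without control replicates 2 or 3 (0.0832 and 0.0789) and without TuD replicate 1 (0.0753). Gm20522 was not called in 3 of the 6 fits, those lacking TuD replicate 2 (0.0587) or control replicates 1 or 2 (0.0546 and 0.0819). Mir133a-1hg lost its call without control replicate 3 (0.0516). Foxo6os fell short without control replicate 1 or 2 (0.0518 and 0.0578), Gm44710 without control replicate 1 (0.0552), and Gm29237 without any 1 control or TuD replicate 1 (0.0504 to 0.0815). E230013L22Rik was not called without control replicate 1 or TuD replicates 1 or 2 (0.0565 to 0.0771), Gm30934 and Gm15417 without control replicate 2 (0.052 and 0.0561), and D830024N08Rik in any of these fits but that without TuD replicate 1 (0.0743 to 0.116). With the presence of Y-linked transcripts as a covariate, which leaves the comparison to TuD replicate 3, 8 members were called higher and 6 lower. Of the calls above, 6 of the 17 higher and 6 of the 17 lower were kept in that fit. The estimate for Gm29237 moved from -1.65 to -0.76 (limma adjusted p = 0.325), for D530033B14Rik from -1.69 to -0.97 (0.136), for Gm44710 from -1.58 to -0.91 (0.185) and for C130080G10Rik from -0.90 to -0.42 (0.285). Tug1 was not called either (+0.51, limma adjusted p = 0.18).

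The members were next set beside their coding partners, the question being whether the 2 genes of a locus moved together. Partners were expressed at the level tested for 80 of the 103 members. The typical member had 33.2% of its partner's FPKM, and 14 of 80 were above it. Partners split into 9 higher and 27 lower with a median log2 fold change of -0.26, and 71 of the 80 members were shorter than the partner. Of all 9594 protein-coding genes tested, 1280 were called higher and 1420 lower (median -0.01). The partners had a median length of 5839.5 bases, and all genes of 2000 bases or more gave 9.78% higher and 16.8% lower. The sign of the change was the same in 44 of 80 pairs. Across the pairs r was 0.04 and Spearman's rank correlation 0.08, a description only, since both values of a pair come from the same 6 libraries. In head-to-head pairs the sign was the same in 15 of 33 (r = -0.05), and in gene-body pairs in 28 of 44 (r = 0.07, Spearman's rank correlation 0.23).

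**Figure D3:**
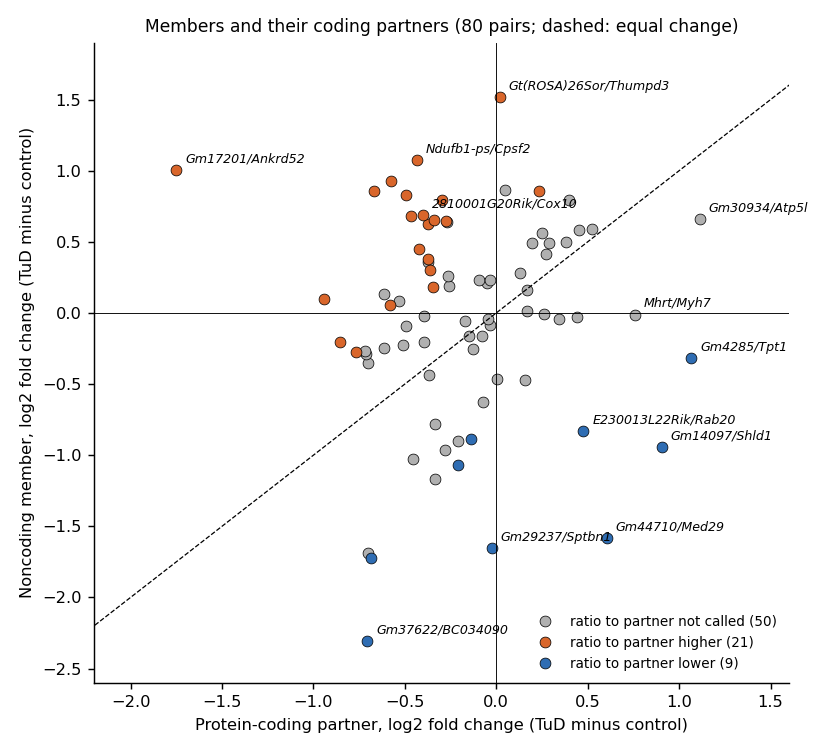
Log2 fold change of each member (vertical) against that of its coding partner (horizontal) for the 80 pairs, TuD minus control, with equal change on the dashed line. Points are coloured by the call on the ratio, 21 higher and 9 lower, and the cloud shows little slope (r = 0.04).

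Both genes of a pair were called in 14 pairs. Both rose in 1, Gm30934 with Atp5l, a subunit gene of ATP synthase (0.775, 0.498 and 0.646 against 1.20, 1.36 and 1.32 for the member, 38.4, 39.2 and 43.0 against 75.6, 99.9 and 88.5 for the partner). Gm30934 was chosen through its TuD samples alone, which favours a higher call. Both fell in 5: Gm37622 with BC034090, Gm12473 with Npr2, D530033B14Rik with 1600014C10Rik, Uckl1os with Uckl1 and D830024N08Rik with the fatty-acid elongation gene Tecr. The member rose and the partner fell in 5: Gm16536 with Bace1, Gm17201 with Ankrd52, Ndufb1-ps with Cpsf2, Gm15417 with Zbtb7b and 2810001G20Rik with Cox10. The member fell and the partner rose in 3: Gm44710 with Med29, Gm14097 with Shld1 and E230013L22Rik with Rab20. Among these 14 partners, Atp5l, Npr2, 1600014C10Rik, Ankrd52 and Shld1 were called in all 6 fits that left out 1 library. The other partners lost the call in 1 fit (Bace1) to 5 fits (Tecr and Cpsf2), with highest adjusted p-values of 0.0543 to 0.14 in limma. Rab20, Cpsf2, Zbtb7b, Med29 and BC034090 were not called under the length correction (0.0618 to 0.424). Of the other pairs, only the member passed in 14, only the partner in 22 and neither in 30.

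The ratio of member to partner was tested in each sample on the log2 scale, across all 6173 gene pairs of the table with both genes tested. Of those, 32.2% were called, 16.6% higher and 15.6% lower. Of the 80 member ratios, 21 were called higher in the TuD group and 9 lower, with a median of +0.26. After the length correction, 11 were higher and 19 lower with a median of -0.16, so the balance of directions depended on it.

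Gm17201 had the largest ratio change upward (+2.76 ± 0.35, limma adjusted p = 0.00249, and +2.01 after the length correction). It measured 9.58, 10.5 and 13.8 in controls and 29.8, 25.0 and 16.1 in TuD samples, while Ankrd52, a regulatory ankyrin-repeat subunit of a protein phosphatase, measured 7.24, 9.71 and 6.21 against 1.84, 1.55 and 2.42. Neither gene overlapped between the groups, with the member above every control and the partner below, although the 2 genes share 59.5% of the member's exonic bases. Ndufb1-ps rose against Cpsf2, a subunit gene of the pre-mRNA cleavage complex (4.5, 3.93 and 4.07 against 2.95, 2.66 and 3.27), by +1.51 ± 0.20 (limma adjusted p = 0.00281). Gm26881 against Fam214b gave +1.53 ± 0.39 (limma adjusted p = 0.0197), a call that was kept in 2 of the 6 fits without 1 library. Gm16536 against Bace1 gave +1.5 ± 0.21 and Gt(ROSA)26Sor against Thumpd3 +1.5 ± 0.27. Thumpd3, which lies across the Rosa26 transcript's end, measured 1.99, 2.24 and 1.88 against 1.80, 2.27 and 2.17 (+0.02). Gm42067 against Dpf2, a chromatin remodelling subunit gene, gave +1.32 ± 0.36 although the member alone did not pass (+0.83, adjusted p = 0.101). Under the length correction the ratios of Gm26881 and Gm42067 were no longer called (limma adjusted p = 0.0656 and 0.15), and the other 4 were.

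Among head-to-head pairs that share a promoter region, the closest with a called ratio was 2810001G20Rik with Cox10, a gene for assembly of cytochrome oxidase. The stretch printed above holds the member's start and begins just past that of Cox10. The noncoding RNA measured 3.59, 4.42 and 3.98 in controls and 6.00, 6.48 and 7.82 in TuD samples. Cox10 measured 30.7, 37.7 and 33.6 against 26.3, 24.8 and 25.5. Both were apart between groups, in opposite directions, and the ratio rose by +1.09 ± 0.16 (limma adjusted p = 0.00355, and 0.0159 after the length correction). The call of Cox10 was kept in 2 of the 6 fits without 1 library, and that of the member ended under the length correction. 4732491K20Rik with the stress kinase gene Map3k4, 57 bases apart, had a ratio change of +0.87 ± 0.19 (limma adjusted p = 0.0111), with the member at 1.03, 0.831 and 0.680 against 1.5, 1.26 and 1.23 and not called alone (+0.45, adjusted p = 0.0576). Map3k4 was called lower (-0.42, limma adjusted p = 0.0401), in 1 of the 6 fits without 1 library and not under the length correction (limma adjusted p = 0.21). Tug1 against Morc2a gave +1.00 ± 0.15. Neither gene was called in the pair of 0610009L18Rik and Actg1, which lie 136 bases apart across the promoter stretch rich in GC boxes. The member measured 12.1, 11.8 and 13.9 against 14.5, 21.2 and 10.6 (+0.23, 95% interval -0.27 to +0.74), and Actg1 changed by -0.03.

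On the lower side, Gm44710 against Med29 had the largest change (-2.19 ± 0.49, limma adjusted p = 0.0121). Med29 measured 12, 15.9 and 13.3 in controls and 19.95, 25.8 and 18.0 in TuD samples. Gm14097 against Shld1 gave -1.85 ± 0.30 (limma adjusted p = 0.00437), with Shld1 at 16.1, 16.7 and 12.7 against 24.6, 26.6 and 35.7. The 2 genes of each pair moved apart with no overlap between groups. Gm29237 against Sptbn1 (-1.63 ± 0.44) and Gm37622 against BC034090 (-1.6 ± 0.19) followed. The Gm29237 ratio was kept in 3 of the 6 fits without 1 library. With the Y-linked covariate, the ratios of Gm44710 (-1.30, limma adjusted p = 0.154) and Gm29237 (-0.70, limma adjusted p = 0.315) were not called, while those of Gm14097 and Gm37622 were.

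Gm4285 starts 129 bases from Tpt1, which encodes the translationally controlled tumour protein, and its promoter stretch above covers the gap between the 2 genes. The member measured 1.75, 1.24 and 2.04 in controls and 1.52, 0.997 and 1.20 in TuD samples, overlapping (-0.32, 95% interval -0.74 to +0.11). It was not called in the reported analysis, but was called lower after the length correction (-0.73, limma adjusted p = 0.0387) and in TPM (-0.60, limma adjusted p = 0.0223). Tpt1 measured 348, 326 and 333 against 692, 777 and 647 and rose by +1.07 (limma adjusted p = 0.0021). The ratio fell by 1.38 on the log2 scale (SE 0.24, limma adjusted p = 0.00538). E230013L22Rik with Rab20, a gene for a small GTPase of endosomes, had starts 781 bases apart. The member measured 8.14, 4.97 and 5.10 against 3.42, 2.24 and 3.91 (-0.83), Rab20 12.8, 10.4 and 10.3 against 17.9, 16.7 and 12.7 (+0.48), and the ratio changed by -1.31 ± 0.26 (limma adjusted p = 0.00828), which was not called with the Y-linked covariate (-0.74, adjusted p = 0.0921). Rab20's groups overlapped, since TuD replicate 3 lay just below the highest control, while the member's did not.

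**Figure D4:**
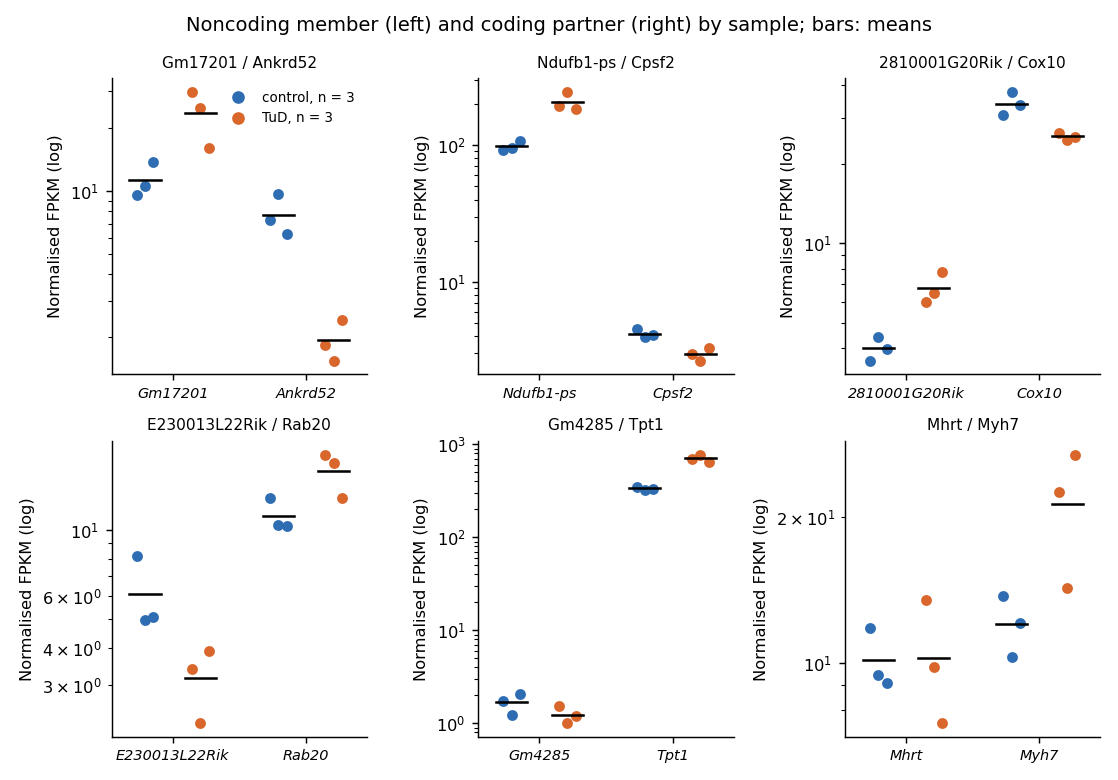
Normalised FPKM by sample (log axes, which differ between panels) for 6 members, left in each panel, and their coding partners, right, with controls in blue, TuD samples in orange (n = 3 each) and bars at the means. Gm17201 and Ankrd52 move in opposite directions, Tpt1 lies at 326 to 348 in controls and at 647 to 777 in TuD samples, and the groups overlap for Gm4285 and for Mhrt.

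Several members lie at genes of the cardiac sarcomere. Mhrt (chr14:54968678-54974349, plus strand, 1214 bases) overlaps Myh7 and has 39.9% of its exonic bases in Myh7 exons. It measured 11.8, 9.44 and 9.10 in controls and 13.5, 9.80 and 7.5 in TuD samples (-0.01 ± 0.20, limma adjusted p = 0.971, 95% interval -0.47 to +0.45). Myh7 measured 13.7, 10.3 and 12.1 against 22.6, 14.3 and 27.0 and was called higher (+0.76, adjusted p = 0.035, limma), a call kept in 1 of the 6 fits without 1 library, with the highest adjusted p of 0.116 when control replicate 2 was left out. The Mhrt-to-Myh7 ratio changed by -0.77 ± 0.30 and was not called (limma adjusted p = 0.0793), but was called after the length correction (-1.27, adjusted p = 0.013). C130080G10Rik, with a start 787 bases from that of the cardiac actin gene Actc1, fell from 11.5, 9.67 and 7 to 4.32, 3.53 and 6.74 (-0.90 ± 0.24, limma adjusted p = 0.0264), a call lost in 4 of the 6 fits without 1 library (adjusted p 0.0743 to 0.0823). Actc1 stood at 10828 to 11427 in 5 samples and 7629 in TuD replicate 3. Gm49130, antisense to the alpha-myosin heavy chain gene Myh6, measured 5.74, 2.44 and 3.13 against 11.9, 6.08 and 4.41 (+0.86 ± 0.37, limma adjusted p = 0.11), with Myh6 at +0.05. The groups overlapped.

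miR-199a was the decoys' target, and its seed (bases 2 to 8) was compared with the members' transcripts. The mature sequences from RefSeq, with the seed in capitals, are shown because a decoy is meant to free transcripts that pair with them.
mmu-miR-199a-5p: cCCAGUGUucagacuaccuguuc
mmu-miR-199a-3p: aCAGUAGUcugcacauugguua
In the longest annotated transcript of each gene, the 7 bases complementary to the 5p seed (ACACTGG) were present in 13 of the 103 members (12.6%) and in 28.8% of 10453 tested genes. Those 13 members gave 1 call higher and 2 lower, with a median log2 fold change of +0.10 against +0.17 for the members without a match. The complement of the 3p seed (ACTACTG) was present in 7 members (6.80%) and in 16.4% of tested genes. Of the 7, 2 were called higher (Gm20522 and Tug1) and none lower, with a median of +0.58 against +0.09 for the others. Gm20522 holds both matches and is also the 1 called higher for 5p. Of all tested genes with a 5p match, 279 were called higher and 596 lower of 3007. With a 3p match it was 164 and 302 of 1715. Over all tested genes the medians with and without a match were -0.09 and +0.05 for 5p and -0.07 and +0.03 for 3p. Genes with a match were longer (median 5210 against 3348.5 bases for 5p, 5584 against 3554 for 3p). After the length correction, the 7 members with a 3p match stood at +0.14 and the other members at -0.23, and the 13 with a 5p match at -0.11 against -0.20. Over all tested genes the corrected medians with and without a match were -0.03 and +0.01 for 5p and -0.0076 and -0.00013 for 3p. The calls of Gm20522 and Tug1 were each lost in 3 of the 6 fits without 1 library, as given above. The 3p matches in the 2 called members, and in the 2 of the 7 with the highest fold changes, read as follows in their transcripts, with the matched bases in capitals. The base number given is that of the first capital, and the bases printed before it lie upstream.
Tug1, from base 1100 of the transcript: ccttccaccttACTACTGaa
Gm20522, from base 309: ggcttagaggaACTACTGtc
2310010J17Rik, from base 223: cgtatctccccACTACTGat
Gm47547, from base 1091: atcaaaattctACTACTGaa
2310010J17Rik, which starts 229 bases from the clathrin assembly gene Picalm, measured 1.22, 2.27 and 1.83 in controls and 2.6, 2.75 and 5.27 in TuD samples (+0.80, limma adjusted p = 0.055). Gm47547, within Dydc2, measured 10.1, 4.88 and 9.39 against 13.1, 12.8 and 13.1 (+0.71, limma adjusted p = 0.0538). Both had groups that did not overlap and missed the threshold narrowly. A match of letters is no evidence of binding.

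Of a list of 34 known long noncoding RNAs, several of them antisense or divergent, 8 reached the level tested and 3 (Hand2os1, Gata6os and Mir100hg) were not matched by name and are not analysed here. Mhrt and Tug1 were the 2 members among the 8. Of the other 6, which the table gives other biotypes, Zfas1, an RNA antisense to Znfx1 that hosts small nucleolar RNAs, rose (1.19, 0.849 and 1.20 against 2.30, 2.41 and 2.35, +0.86, limma adjusted p = 0.00504). Epb41l4aos rose (+0.61, limma adjusted p = 0.0327), though not under the length correction (adjusted p = 0.921), in TPM (+0.26, adjusted p = 0.325), in limma-voom (adjusted p = 0.0935) or in 4 of the 6 fits without 1 library, and the imprinted Peg13 fell (-0.52, limma adjusted p = 0.00635). Neat1 (+0.97), Malat1 (+0.94) and Mir22hg (+1.10) had wide spreads and did not pass (limma adjusted p = 0.145, 0.391 and 0.0657). Dnm3os, the antisense host transcript of a miR-199a gene, was far below the level of the members. It measured 0.0199, 0.0064 and 0.0133 in controls and 0.115, 0.0349 and 0.0227 in TuD samples, from 6 and 21 reads, and was not tested.

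Other classes of long noncoding RNA, chosen with the same filter, split differently between directions. Of 125 long intergenic RNAs, 40 were called higher and 11 lower (median +0.38), and of 52 processed transcripts 20 and 4 (median +0.32), against 17 and 17 of the 103 members. After the length correction, intergenic RNAs gave 11 higher and 17 lower and processed transcripts 10 and 6. The difference between these classes and the members was not tested.

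**Figure D5:**
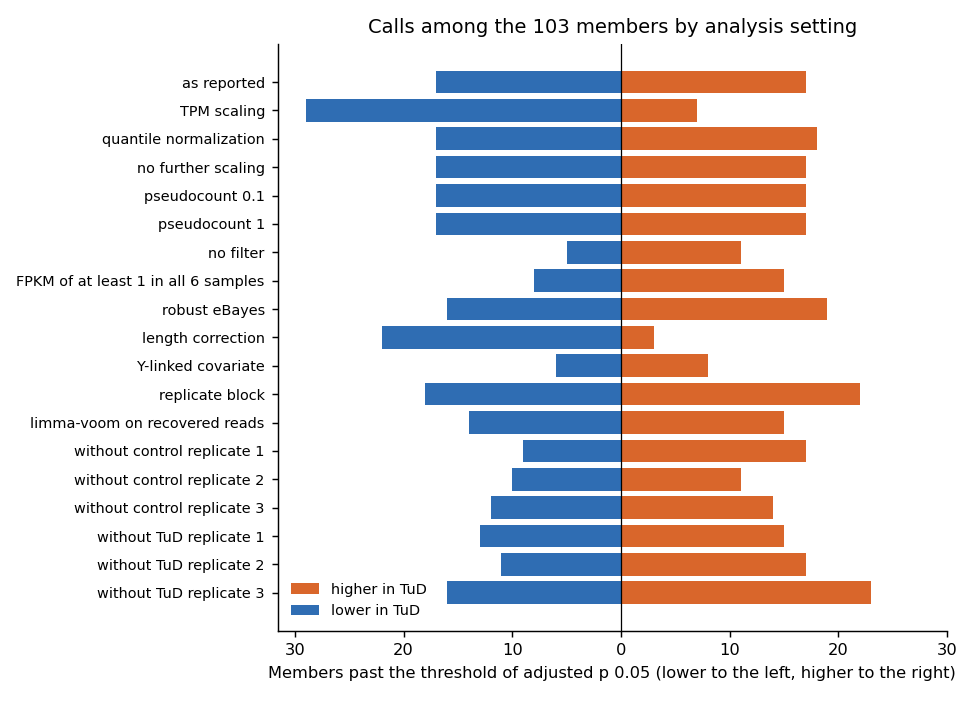
Number of the 103 members past the threshold under each analysis setting, with members higher in the TuD group to the right (orange) and lower to the left (blue). Of all 10460 tested genes, 3039 passed as reported, 2525 under the length correction and 4656 in TPM. The counts that follow are of members. The reported analysis gives 17 and 17, the length correction 3 and 22, TPM 7 and 29, and the Y-linked covariate 8 and 6.

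The values that decided membership lie close together at the limit. The third-highest deposited FPKM, which had to reach 1, was 1.01 in C330011M18Rik, 1.02 in Gm32031 and 1.06 in Gm37768, the nearest members inside, and 0.995 in Gm45552, 0.962 in A130014A01Rik and 0.949 in Gm49041, the nearest outside. All 6 samples were at 1 or above in 73 members and exactly 3 in 18. Of the 2886 genes of the same annotation that were not members, 1736 had no read in any sample.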

How the data were processed

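RNA from 3 AAV9-EGFP and 3 AAV9-anti-miR-199a-TuDs mouse myocardium samples was analysed, grouped by the labels. The submitters' processing notes name HISAT2 2.0.5, featureCounts 1.5.0-p3 and the mouse build mm10. The strand setting and annotation release are not given in the sources used here. The deposited values are FPKM made by the authors for 54532 genes, with lengths, coordinates and biotypes. Every value times length gave whole reads (tolerance 0.05 of a read) in 100% of cases, 15.2 to 18.2 M (megareads) a library, so 3 reads over 1 kilobase equal an FPKM of 0.155 to 0.209.

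Median-of-ratios size factors scaled the FPKM. Genes at 1 FPKM or more in 3 samples (10460) were tested by limma (lmFit, eBayes with trend, two-sided) on log2 of the value plus 0.5, Benjamini-Hochberg adjusted over all genes, threshold 0.05; fold changes are on that log2 scale, which understates low genes. Ratios to partners were fitted likewise over 6173 pairs. On simulated data, the share of false calls ran above the nominal rate in each draw. The members, lists and tests were chosen with earlier results of these data known. Named members are up to 10 highest and 10 lowest among the calls, the 5 most abundant, up to 6 ratio calls each way, their partners, and a list of known RNAs. Other members named (such as Gm49130 and those with seed matches) were chosen after their values were seen, and the seed search in GENCODE M21 transcripts was added then. A few members and partners covered by that rule are not reported here. All 103 members are in GENCODE M21, 101 with the same coordinates. Replicate numbers did not pair the samples. Alternatives were TPM, quantile and no further scaling, pseudocounts of 0.1 and 1, a stricter and no filter, robust variances, limma-voom on recovered reads, a length correction (lowess, span 0.3), a Y-linked covariate, the replicate number as a block and each library left out. Tools were R 4.3.3, limma 3.58.1, Python 3.11.15, numpy 2.4.6, pandas 2.3.3 and matplotlib 3.10.9.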

Additional observations from a re-analysis of the deposited data

How the results depend on the processing

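The direction of some estimates depended on the setting. Under the length correction the median of the members went from +0.16 to -0.20, that of the ratios from +0.26 to -0.16, Mir133a-1hg from +0.49 to -0.10 and Gm45670 from +0.38 to -0.09. With the Y-linked covariate Gm13375 went from -0.22 to +0.13. That estimate compares TuD replicate 3, the sample with the highest atrial and neutrophil marker sums, with the controls. With TPM, 4656 genes passed, and 7 members were higher and 29 lower. With no filter on low values 1936 genes and 16 members passed (11 higher, 5 lower), and with FPKM of at least 1 in all 6 samples, 8 members were lower, 5 ratios were lower and 27 pairs had the same sign (fewer pairs were tested). The length correction gave 3 members higher, with 11 ratios higher and 19 lower. With the Y-linked covariate 1183 genes and 14 members passed (8 higher, 6 lower), and 14 ratios (8 higher). At an adjusted p of 0.01, 11 members passed. The cause was not tested, except that the last tightens the threshold and the Y-linked covariate leaves TuD replicate 3 alone against the controls. Leaving out 1 library gave 1630 to 3301 genes, 21 to 39 members (11 to 23 higher, 9 to 16 lower), 21 to 36 ratios (14 to 23 higher, 6 to 13 lower) and 42 to 48 pairs of the same sign. Without control replicate 2, 21 members passed. Pseudocounts of 0.1 and 1, quantile normalisation, no further scaling, robust variances and limma-voom kept every count within 1.5 times.

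Replicate numbers were not taken to pair the samples: correlations of deviations for the same number were 0.06, 0.09 and -0.06, and not every sample correlated best with its own number. With the replicate block, 2642 genes and 40 members passed (22 higher, 18 lower), and 33 ratios. A median of 330 reads a member limits what can be detected for the rarer ones.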
